A study of Mus musculus with 12 samples.

Results

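Ribosome biogenesis and rRNA processing factors were followed through mouse oocytes with and without MTR4, a helicase cofactor of the nuclear exosome, the complex that trims and degrades RNA. The members were a fixed list of 44 nucleolar protein genes, chosen by name. Of these, 43 had a row among the 23235 gene symbols of the deposited table, and values for Noc2l were not analysed here. All 43 passed the filter on low values, an FPKM averaging 1 or more across the 4 groups, as did 11913 genes of the whole table, and all 43 also had a WT mean of at least 1. The series compares 4 groups, Mtr4-null and WT oocytes at postnatal day 14, described as growing, and Mtr4-null and WT germinal vesicle (GV) oocytes at day 21. The labels list 3 samples per group, 12 in all, each a pool of 10 oocytes, and the design text speaks of duplicates. The sources used here do not give how the Mtr4 allele was deleted, the strain, or whether samples came from separate animals.

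FPKM, read fragments scaled to transcript length and to the mapped fragments of the library, was deposited as 1 mean per gene and group. No value below therefore has a replicate error or a test, and sequencing depth is unknown. Differences are given on the log2(FPKM + 1) scale, as Mtr4-null minus WT, and a gene was counted as higher or lower when this difference was at least 1 (2-fold), which is a rule of size. Adding 1 shrinks the fold of scarce genes, so the plain FPKM ratio is added for some of them. FPKM is a relative measure and does not show the total RNA of the 10 oocytes in a pool. A fall of a given mRNA and a rise of the other RNA therefore cannot be told apart. In the WT columns and the Mtr4-null day 14 column, 55.4% to 57.4% of the values above 0 carried the repeating last digits that a mean of 3 numbers leaves, against 0.1% in the Mtr4-null day 21 column, which may average another number of libraries. The targeted gene, Skiv2l2 (Mtrex), had 1.57 FPKM in Mtr4-null and 27.6 FPKM in WT oocytes at day 14, and 3.86 FPKM in Mtr4-null and 26.3 FPKM in WT oocytes at day 21. All 10 oocyte markers were detected in every group, with summed levels of 13394 to 22138 FPKM. The 10 granulosa markers summed to 25.6 FPKM in Mtr4-null and 27.1 FPKM in WT oocytes at day 14 and to 24.1 and 38.2 FPKM in Mtr4-null and WT oocytes at day 21, and 5 or 6 of the 10, Amh and Foxl2 among them, were under 1 FPKM in each group. Cyp19a1 stood at 1.48 FPKM in Mtr4-null and 25.3 FPKM in WT oocytes at day 21, Inha at 10.9 FPKM in Mtr4-null and 1.72 FPKM in WT oocytes, and Nr5a2 at 6.34 FPKM in Mtr4-null and 6.63 FPKM in WT oocytes. The 11 theca, stromal, endothelial and blood markers summed to 11.2 and 13.8 FPKM in Mtr4-null and WT oocytes at day 14 and to 3.12 and 21.03 FPKM in Mtr4-null and WT oocytes at day 21, and 9 or 10 of the 11 were under 1 FPKM in each group, with Hba-a1 and Hbb-b1 listed at 0. Most of each sum was the level of Pecam1 alone, at 2.13 FPKM in Mtr4-null and 20.7 FPKM in WT oocytes at day 21 and at 9.82 FPKM in Mtr4-null and 13.2 FPKM in WT oocytes at day 14. The part of these levels in the results was not tested.

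Ribosomes are assembled in the nucleolus on a long rRNA precursor made by RNA polymerase I. Small nucleolar RNAs (snoRNAs) in protein complexes guide the chemical modification of that RNA. A large small-subunit processome and a series of large-subunit precursors then fold, cut and trim it. MTR4 and the exosome trim the end of a large-subunit rRNA intermediate and degrade spacer fragments. Growing oocytes build up a large store of ribosomes, and in mouse oocytes the nucleolus later becomes a compact body with little transcription.

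Some of the genes hold snoRNAs, and part of these loci have values of their own beside those of the host gene. In the GENCODE annotation (vM21, build GRCm38), 7 of the 44 genes, Nop56, Nop58, Dkc1, Ncl, Wdr43, Tsr1 and Gnl3, hold 21 snoRNAs on their own strand, and 11 of these snoRNAs had a row in the table. The 6 that were above 0 in a Mtr4-null column are shown, because each lies inside a gene described further on. Capitals mark the box elements found by letter match, TGATGA (box C, near the start) and CTGA (box D, near the end) in C/D snoRNAs and ACA in the H/ACA snoRNA Snora75, whose ACA ends 3 bases before its end. Snord57, Snord91a and Snord19 have no exact TGATGA near the start.
Snord92, in Wdr43, chr17:71631281-71631365, plus strand: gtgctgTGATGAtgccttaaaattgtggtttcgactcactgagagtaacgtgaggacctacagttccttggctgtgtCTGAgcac
Snord11, in Nop58, chr1:59704790-59704873, plus strand: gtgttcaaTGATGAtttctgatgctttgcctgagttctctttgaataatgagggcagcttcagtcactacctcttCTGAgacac
Snord19, in Gnl3, chr14:31016206-31016281, minus strand: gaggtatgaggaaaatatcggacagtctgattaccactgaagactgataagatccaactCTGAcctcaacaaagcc
Snord57, in Nop56, chr2:130278016-130278087, plus strand: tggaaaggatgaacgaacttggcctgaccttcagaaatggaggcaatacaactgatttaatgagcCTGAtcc
Snord91a, in Tsr1, chr11:74905424-74905516, plus strand: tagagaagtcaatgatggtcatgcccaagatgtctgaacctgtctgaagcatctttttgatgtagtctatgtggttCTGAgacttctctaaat
Snora75, in Ncl, chr1:86351169-86351301, minus strand: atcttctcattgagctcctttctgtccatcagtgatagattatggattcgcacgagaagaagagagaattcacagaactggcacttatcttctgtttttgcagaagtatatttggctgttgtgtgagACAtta

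Snora75, inside the nucleolin gene, stood at 153 FPKM in Mtr4-null and was listed at 0 in WT oocytes at day 14, and at day 21 it stood at 285 FPKM in Mtr4-null and 6.76 FPKM in WT oocytes. Snord92 stood at 48.0 FPKM at day 14 and 499 FPKM at day 21 in Mtr4-null oocytes and was listed at 0 in both WT groups. These were the snoRNAs above 0 in Mtr4-null oocytes of both ages. Snord11 stood at 954 FPKM and Snord19 at 4979 FPKM in the day 21 Mtr4-null oocytes, and both were listed at 0 in the other 3 groups. Snord57 stood at 551 FPKM and Snord91a at 844 FPKM in the day 14 Mtr4-null oocytes, and both were listed at 0 in the other 3 groups. The remaining 5, Snord110, Snord70, Snord82, Snord53 and Snord69, were listed at 0 in all 4 groups. Over all 114 snoRNA and scaRNA loci of the table, 59 (51.8%) were above 0 in a Mtr4-null column, so the 6 of 11 inside these genes were close to that share. Of the 114 loci, 32 were above 0 in a WT column, against 1 of the 11. At 0 in both WT columns and above 0 in a Mtr4-null one were 30 of the 114. Of the 11, these were Snord92, Snord11, Snord19, Snord57 and Snord91a. FPKM of loci of 72 to 133 bases can rest on few fragments, and how many libraries gave these values was not analysed here. The libraries were made from poly(A) RNA, so a listed 0 does not show that a snoRNA was absent. Whether the reads came from the snoRNA or from host RNA running across it was not tested.

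The host genes were detected in all 4 groups. Nop56 and Nop58 stood at 53.7 and 52.4 FPKM in Mtr4-null and 63.9 and 58.3 FPKM in WT oocytes at day 14, and Wdr43 at 43.6 FPKM in Mtr4-null and 44.3 FPKM in WT oocytes. Across the 7 hosts the log2 difference ran from -0.73 to 0.81 at day 14, with a median of -0.15, and from -1.62 to 1.03 at day 21, with a median of -0.45. The other 36 genes had medians of 0.12 at day 14 and -0.37 at day 21.

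**Figure D1:**
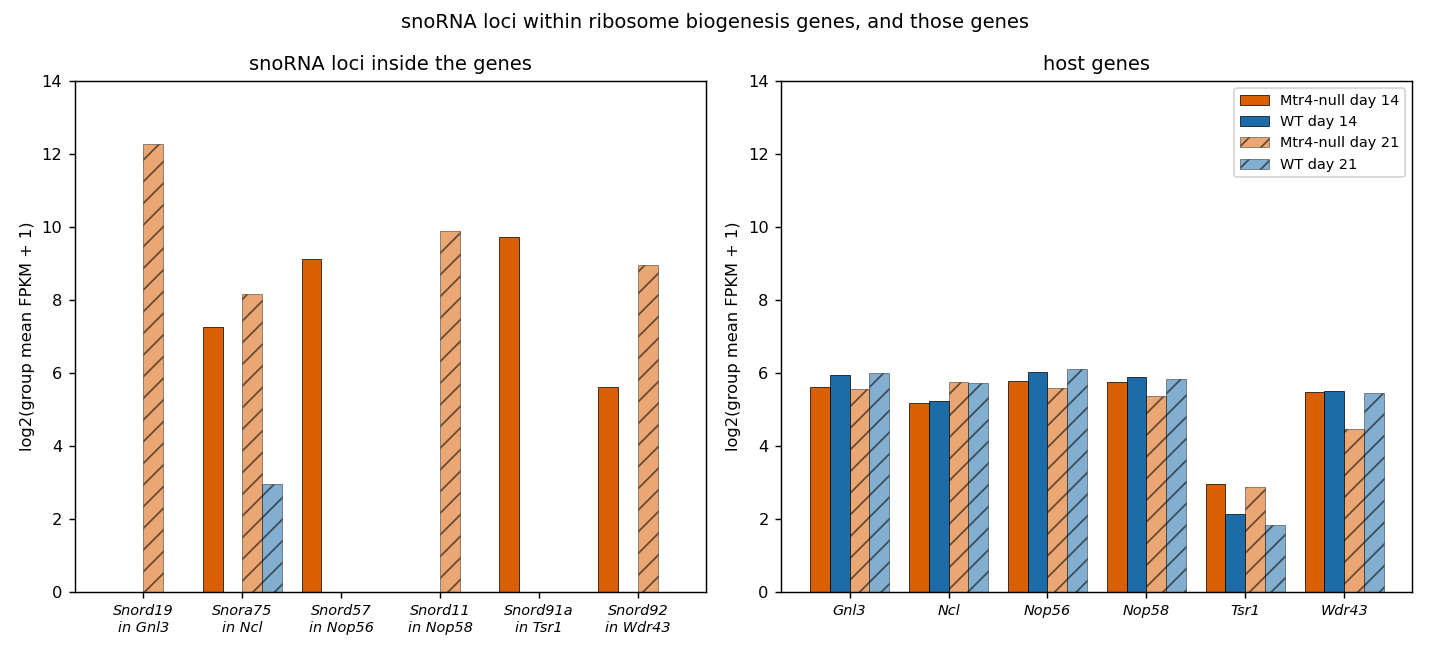
Group mean level, as log2(FPKM + 1), of the 6 snoRNA loci above 0 (left) and of the genes that hold them (right), with bars for Mtr4-null day 14, WT day 14, Mtr4-null day 21 and WT day 21 from left to right. A missing bar is a listed 0. Among WT bars at the left, Snora75 at day 21, at 6.76 FPKM, is the 1 that is above 0, while every host gene has a bar in all 4 groups, with Wdr43 and Tsr1 the hosts whose bars part most.

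The first comparison asked whether the mRNAs of these factors differ without MTR4 in growing oocytes, and at day 14 few did. Rrs1, a large-subunit factor that in yeast helps bring a small RNA particle into the precursor, stood at 7.001 FPKM in Mtr4-null and 2.60 FPKM in WT oocytes. Nop2, an rRNA cytosine methyltransferase, stood at 20.2 FPKM in Mtr4-null and 9.09 FPKM in WT oocytes. Their log2 differences were 1.15 and 1.07, and no other member reached 1. These 2 higher genes were 4.65% of the 43, against 8.10% of all genes tested, and none was lower, against 1.55% of all genes. The difference of Nop2 was 0.93 under median-of-ratios scaling, and under quantile normalization those of both genes were 0.90. The median of the 43 was 0.019, against 0.052 for all genes, and 23 of them were above 0. The lowest value was that of Dkc1, at -0.73.

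At day 21 the same factors split into genes that were higher and genes that were lower in Mtr4-null oocytes, in numbers close to those of the whole table. Of the 43 genes, 7 (16.3%) were higher, against 20.2% of all genes, and 10 (23.3%) were lower, against 25.7%. Their median log2 difference was -0.428, and that of all genes was -0.275. The share of all genes depends on the filter on low values. With genes that had a WT mean of at least 1 it was 15.4% higher and 27.7% lower, and with no filter 11.9% higher and 13.7% lower, while the members' counts were the same. The list is therefore not set apart by these shares, and the members are described one by one below. Their summed level was 2125 FPKM in Mtr4-null and 2151 FPKM in WT oocytes at day 14 and 1829 FPKM in Mtr4-null and 2226 FPKM in WT oocytes at day 21. That is 0.281% of all FPKM in Mtr4-null and 0.369% in WT oocytes at day 21. The totals differ too, at 649983 FPKM in Mtr4-null and 603675 FPKM in WT oocytes, and abundant genes weigh most in such sums.

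**Figure D2:**
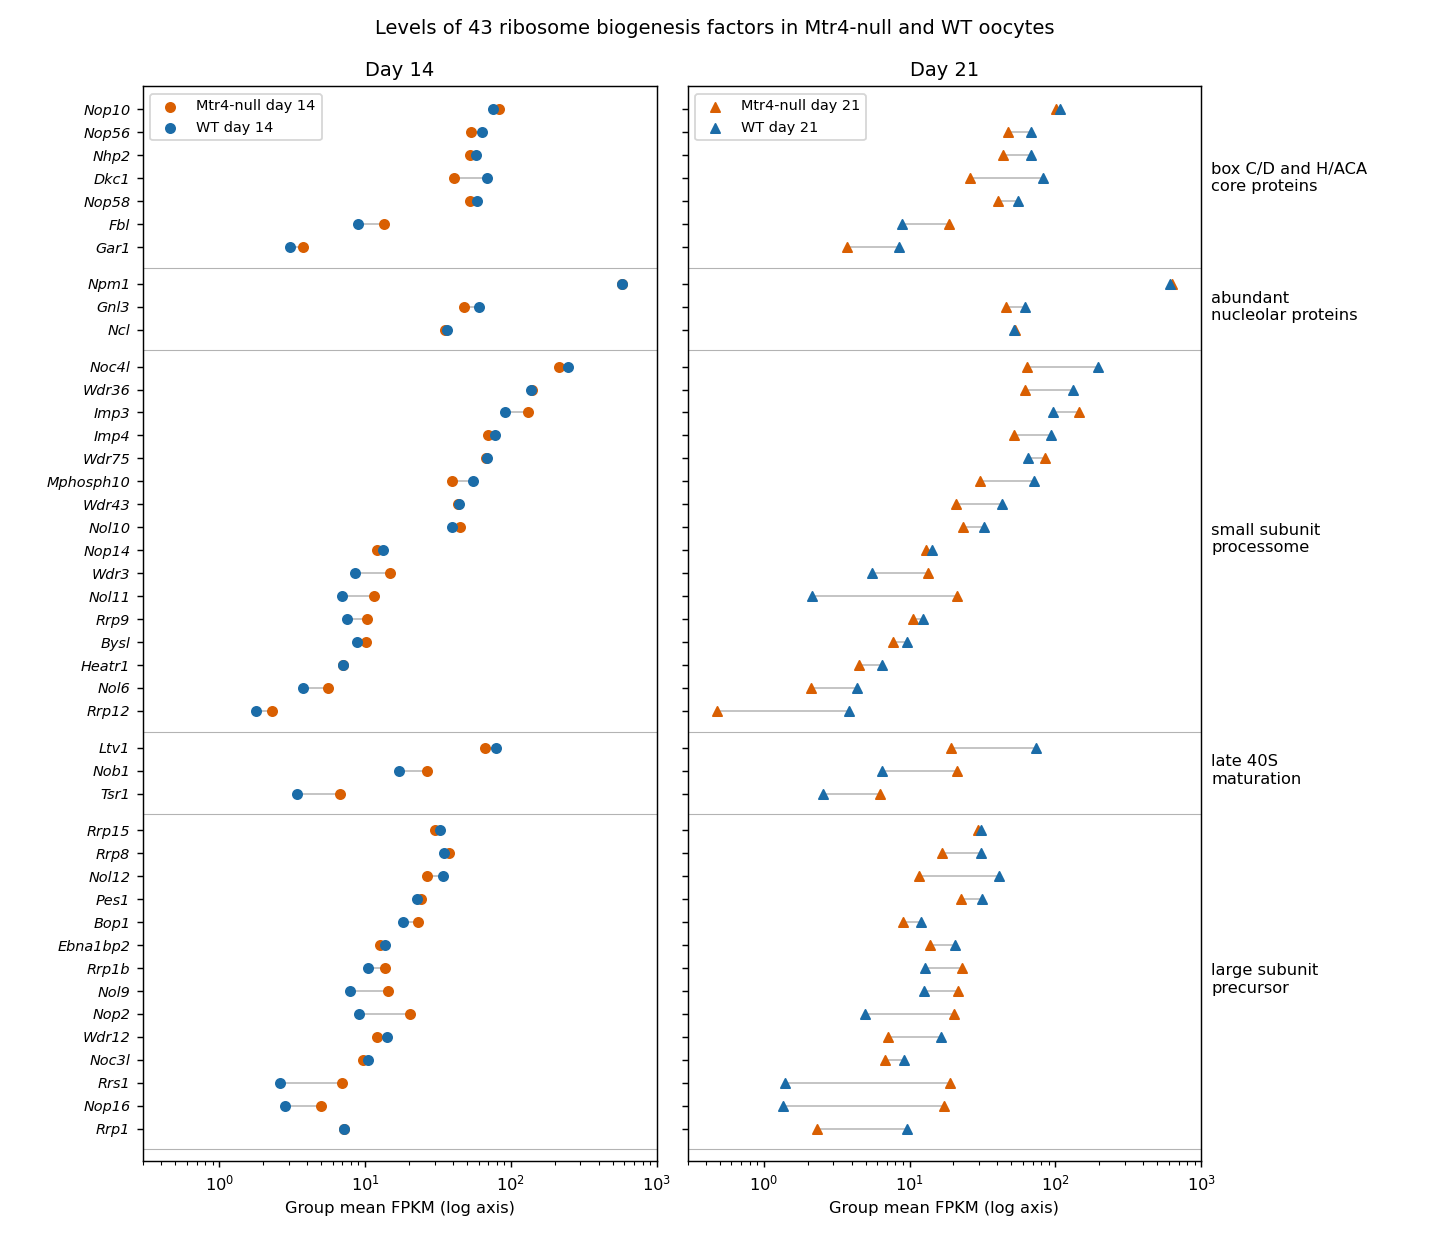
Group mean FPKM (log axis) of the 43 genes at day 14 (left, circles) and day 21 (right, triangles) in Mtr4-null (orange) and WT (blue) oocytes, sorted by mean level within each role, with a grey line joining both groups. The pairs lie close together at day 14 and spread in both directions at day 21, with Rrs1, Nop16 and Nol11 far to the right in Mtr4-null oocytes and Rrp12, Rrp1 and Ltv1 to the left.

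Of the 7 core proteins of snoRNA particles, none was higher and 2 were lower at day 21, beside the 20.2% higher and 25.7% lower of all genes. In box C/D particles, which guide ribose methylation, the scaffold pair Nop56 and Nop58 kept a ratio near 1 in all groups, at 1.023 in Mtr4-null and 1.10 in WT oocytes at day 14 and at 1.17 and 1.22 in Mtr4-null and WT oocytes at day 21. At day 21 Nop56 stood at 47.2 FPKM in Mtr4-null and 67.9 FPKM in WT oocytes, a difference of -0.51. Nop58 stood at 40.4 FPKM in Mtr4-null and 55.7 FPKM in WT oocytes, a difference of -0.45. Fbl encodes the methyltransferase fibrillarin, and its FPKM was well under that of its partners. It stood at 13.4 FPKM in Mtr4-null and 8.88 FPKM in WT oocytes at day 14, and at 18.5 FPKM in Mtr4-null and 8.92 FPKM in WT oocytes at day 21. The day 21 difference of 0.98 lay just under the 2-fold rule, with a plain FPKM ratio of 2.08. Its mRNA has near-identical copies, the pseudogene Gm5812 and a stretch of a Tulp4 transcript, so its reads are uncertain.

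The box H/ACA particles, which guide pseudouridine formation, gave 2 of the lower genes at day 21. Dkc1, the pseudouridine synthase dyskerin, stood at 40.8 FPKM in Mtr4-null and 68.3 FPKM in WT oocytes at day 14. At day 21 it stood at 25.97 FPKM in Mtr4-null and 82.1 FPKM in WT oocytes, a log2 difference of -1.62. Gar1 stood at 3.73 FPKM in Mtr4-null and 3.04 FPKM in WT oocytes at day 14, and at 3.71 and 8.49 FPKM in Mtr4-null and WT oocytes at day 21, a difference of -1.01 that was -0.89 under median-of-ratios scaling. The small subunit Nop10 was the most abundant, at 82.7 FPKM in Mtr4-null and 75.6 FPKM in WT oocytes at day 14 and at 100.2 and 107.6 FPKM in Mtr4-null and WT oocytes at day 21. Nhp2, which binds next to Nop10, stood at 43.4 FPKM in Mtr4-null and 67.7 FPKM in WT oocytes at day 21. The Dkc1 to Nop10 ratio was 0.259 in Mtr4-null and 0.763 in WT oocytes at day 21.

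The abundant nucleolar proteins differed little. Npm1, which encodes the multifunctional chaperone nucleophosmin, was the most abundant member in every group, at 576 FPKM in Mtr4-null and 578 FPKM in WT oocytes at day 14 and 628 FPKM in Mtr4-null and 609 FPKM in WT oocytes at day 21. Ncl (nucleolin) stood at 35.1 FPKM in Mtr4-null and 36.7 FPKM in WT oocytes at day 14 and at 52.6 and 52.1 FPKM in Mtr4-null and WT oocytes at day 21. Gnl3, the GTPase nucleostemin, stood at 47.8 and 60.3 FPKM in Mtr4-null and WT oocytes at day 14 and at 46.0 and 62.2 FPKM in Mtr4-null and WT oocytes at day 21.

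Of 16 genes of the small-subunit processome, 2 were higher and 4 lower at day 21, beside 20.2% and 25.7% of all genes, and none differed 2-fold at day 14. Nol11, a subunit of the UTP-A complex that binds the precursor first and is needed for its transcription, stood at 21.3 FPKM in Mtr4-null and 2.13 FPKM in WT oocytes at day 21, a log2 difference of 2.83. At day 14 it stood at 11.6 FPKM in Mtr4-null and 6.90 FPKM in WT oocytes. Its partner Wdr43 stood at 20.98 FPKM in Mtr4-null and 42.7 FPKM in WT oocytes at day 21, a difference of -0.99, just short of the rule. The Nol11 to Wdr43 ratio was thus 1.01 in Mtr4-null and 0.0499 in WT oocytes at day 21, and 0.266 in Mtr4-null and 0.156 in WT oocytes at day 14. Wdr75 and Heatr1 of the same complex had differences of 0.38 and -0.45 at day 21.

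In the UTP-B complex, which joins after UTP-A, both members passed the rule in opposite directions. Wdr3 stood at 13.4 FPKM in Mtr4-null and 5.56 FPKM in WT oocytes at day 21, and Wdr36 at 62.0 FPKM in Mtr4-null and 131 FPKM in WT oocytes. Their differences were 1.13 and -1.07, and that of Wdr36 was -0.92 under median-of-ratios scaling and -0.91 under quantile normalization. At day 14 Wdr3 stood at 14.8 and 8.49 FPKM in Mtr4-null and WT oocytes, and Wdr36 at 140.3 and 138 FPKM in Mtr4-null and WT oocytes.

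The MPP10 complex holds the U3 snoRNA on the precursor, and its 3 subunits also parted. Imp3 stood at 146 FPKM in Mtr4-null and 95.7 FPKM in WT oocytes at day 21, Imp4 at 51.7 FPKM in Mtr4-null and 92.9 FPKM in WT oocytes, and Mphosph10 at 30.5 FPKM in Mtr4-null and 71.5 FPKM in WT oocytes. Of these, Mphosph10 passed the rule, at -1.20. At day 14 it stood at 39.6 FPKM in Mtr4-null and 55.1 FPKM in WT oocytes. The span from the highest to the lowest of the 3 was 4.79-fold in Mtr4-null and 1.34-fold in WT oocytes at day 21. At day 14 this span was 3.33-fold in Mtr4-null and 1.66-fold in WT oocytes.

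**Figure D3:**
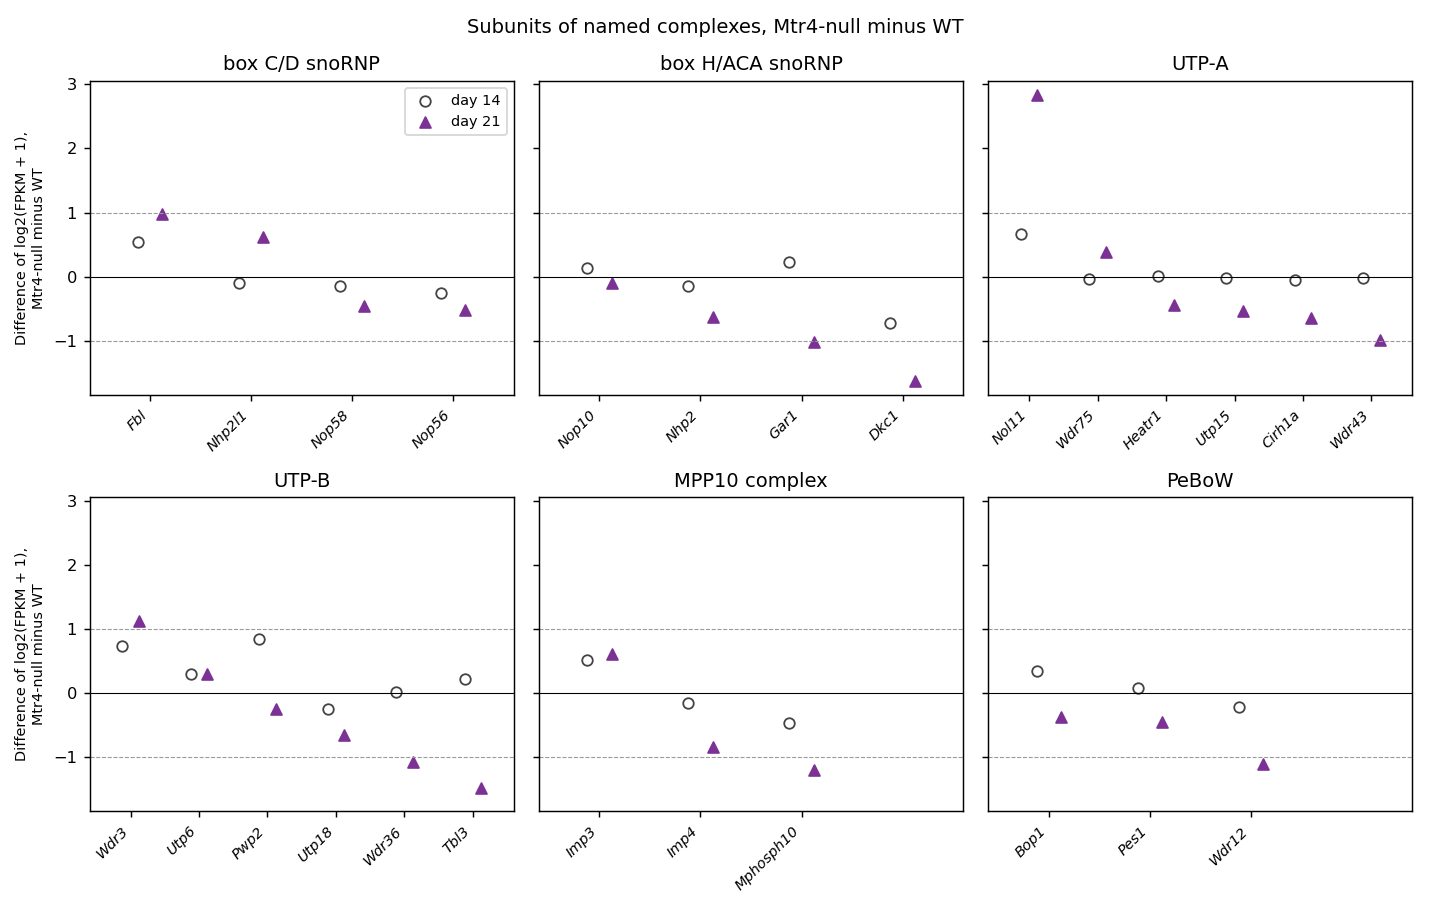
Difference of log2(FPKM + 1), Mtr4-null minus WT, for subunits of 6 complexes at day 14 (open circles) and day 21 (triangles), sorted by the day 21 value, with dashed lines at the 2-fold rule. Nhp2l1, Cirh1a, Utp15, Pwp2, Tbl3, Utp6 and Utp18 are further subunits from outside the list. At day 21 the subunits of UTP-A span 3.82 log2 units and those of UTP-B 2.61, while at day 14 they span 0.72 and 1.10. The spans at day 14 and day 21 were 0.79 and 1.49 in box C/D and 0.96 and 1.52 in box H/ACA. They were 0.99 and 1.81 in MPP10 and 0.55 and 0.73 in PeBoW. The quartiles of all genes tested were -0.22 and 0.4 at day 14 and -1.02 and 0.69 at day 21. A wider spread at day 21 was thus not particular to these complexes.

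Noc4l, which forms a pair with Nop14 in the processome, was the most abundant processome gene of the list in WT oocytes. It stood at 64.3 FPKM in Mtr4-null and 196 FPKM in WT oocytes at day 21, a difference of -1.59, and at 213 and 247 FPKM in Mtr4-null and WT oocytes at day 14. Nop14 differed by -0.12 at day 21, so the Noc4l to Nop14 ratio was 4.92 in Mtr4-null and 13.7 in WT oocytes. Rrp12, an export factor, had the lowest FPKM averaged over the 4 groups, at 0.481 FPKM in Mtr4-null and 3.83 FPKM in WT oocytes at day 21, a difference of -1.70 with a plain FPKM 7.96-fold lower, and at 2.30 FPKM in Mtr4-null and 1.77 FPKM in WT oocytes at day 14. Nol6, Nol10, Rrp9 and Bysl had day 21 differences of -0.79, -0.48, -0.22 and -0.28.

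Of the 3 factors of late small-subunit maturation, 2 were higher and 1 was lower at day 21, when 20.2% of all genes were higher and 25.7% lower. Nob1, the endonuclease that makes the final cut of the small-subunit rRNA, stood at 20.99 FPKM in Mtr4-null and 6.49 FPKM in WT oocytes. Tsr1, a GTPase-like placeholder on the precursor, stood at 6.26 FPKM in Mtr4-null and 2.55 FPKM in WT oocytes. Ltv1, another assembly factor, stood at 19.4 FPKM in Mtr4-null and 74.0 FPKM in WT oocytes. At day 14 Nob1 stood at 26.5 FPKM in Mtr4-null and 17.2 FPKM in WT oocytes, Tsr1 at 6.75 FPKM in Mtr4-null and 3.42 FPKM in WT oocytes, and Ltv1 at 66.0 FPKM in Mtr4-null and 79.4 FPKM in WT oocytes. The 3 day 21 differences were 1.55, 1.03 and -1.88, and that of Tsr1 was 0.95 under quantile normalization. The difference of Ltv1 was the lowest among the members on the log2(FPKM + 1) scale. By plain FPKM it was 3.82-fold lower, less than Rrp12 at 7.96-fold and Rrp1 at 4.13-fold, and with a pseudocount of 0.1 its difference was -1.93 beside the -2.76 of Rrp12. The Nob1 to Ltv1 ratio was 1.08 in Mtr4-null and 0.0877 in WT oocytes at day 21, and 0.402 in Mtr4-null and 0.217 in WT oocytes at day 14. That ratio sets the highest of the 3 day 21 differences against the lowest, so it restates them.

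Among 14 genes of large-subunit precursors, 3 (21.4%) were higher and 3 (21.4%) lower at day 21, against 20.2% and 25.7% of all genes. Rrs1 stood at 18.8 FPKM in Mtr4-null and 1.39 FPKM in WT oocytes, and Nop16, a nucleolar assembly factor, at 17.3 FPKM in Mtr4-null and 1.35 FPKM in WT oocytes. These had the widest log2 differences of all members, 3.05 and 2.96, with FPKM ratios of 13.5 and 12.8. Nop2 stood at 20.2 FPKM in Mtr4-null and 4.93 FPKM in WT oocytes, a difference of 1.84. At day 14 Nop16 stood at 4.98 FPKM in Mtr4-null and 2.82 FPKM in WT oocytes, a difference of 0.65.

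The lower genes of this role were Nol12, Rrp1 and Wdr12. Nol12, related to a yeast exonuclease of rRNA processing, stood at 11.7 FPKM in Mtr4-null and 41.3 FPKM in WT oocytes at day 21, a difference of -1.74. Rrp1 stood at 2.33 FPKM in Mtr4-null and 9.63 FPKM in WT oocytes, a difference of -1.67, whereas its paralog Rrp1b stood at 22.7 FPKM in Mtr4-null and 12.8 FPKM in WT oocytes, a difference of 0.79. At day 14 Nol12 stood at 26.7 FPKM in Mtr4-null and 34.2 FPKM in WT oocytes, and Rrp1 at 7.12 FPKM in Mtr4-null and 7.21 FPKM in WT oocytes. Rrp1b was at 9.76 times the level of Rrp1 in Mtr4-null and 1.32 times in WT oocytes at day 21.

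Wdr12, Pes1 and Bop1 form the PeBoW complex, needed to remove the second internal spacer. Wdr12 stood at 7.09 FPKM in Mtr4-null and 16.3 FPKM in WT oocytes at day 21, a difference of -1.10 that was -0.97 under median-of-ratios scaling, and at 12.1 FPKM in Mtr4-null and 14.2 FPKM in WT oocytes at day 14. Pes1 and Bop1 stood at 22.6 and 9.09 FPKM in Mtr4-null and at 31.3 and 12.1 FPKM in WT oocytes, with differences of -0.45 and -0.37. Among the abundant genes of this role, Rrp15 stood at 29.5 FPKM in Mtr4-null and 30.8 FPKM in WT oocytes at day 21, and Rrp8, an rRNA adenosine methyltransferase, at 16.8 FPKM in Mtr4-null and 30.7 FPKM in WT oocytes. Noc3l, Ebna1bp2 and Nol9, a kinase that acts on rRNA ends, had differences of -0.37, -0.53 and 0.72.

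The comparisons at day 14 and day 21 share no libraries, so the day 14 values of the genes that differed at day 21 were read side by side. All 7 genes that were higher at day 21 were also above 0 at day 14, from 0.60 to 1.15, with a median of 0.74. Among all genes higher at day 21, 94.7% were above 0 at day 14, and the median was also 0.74. Of the 10 genes lower at day 21, 7 were below 0 at day 14, with a range from -0.73 to 0.25 and a median of -0.21. Among all genes lower at day 21 it was 79.0%, with a median of -0.27. Npm1, Ncl, Nop10 and Rrp15 were among the members whose difference stayed within 0.5 of 0 at both ages.

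**Figure D4:**
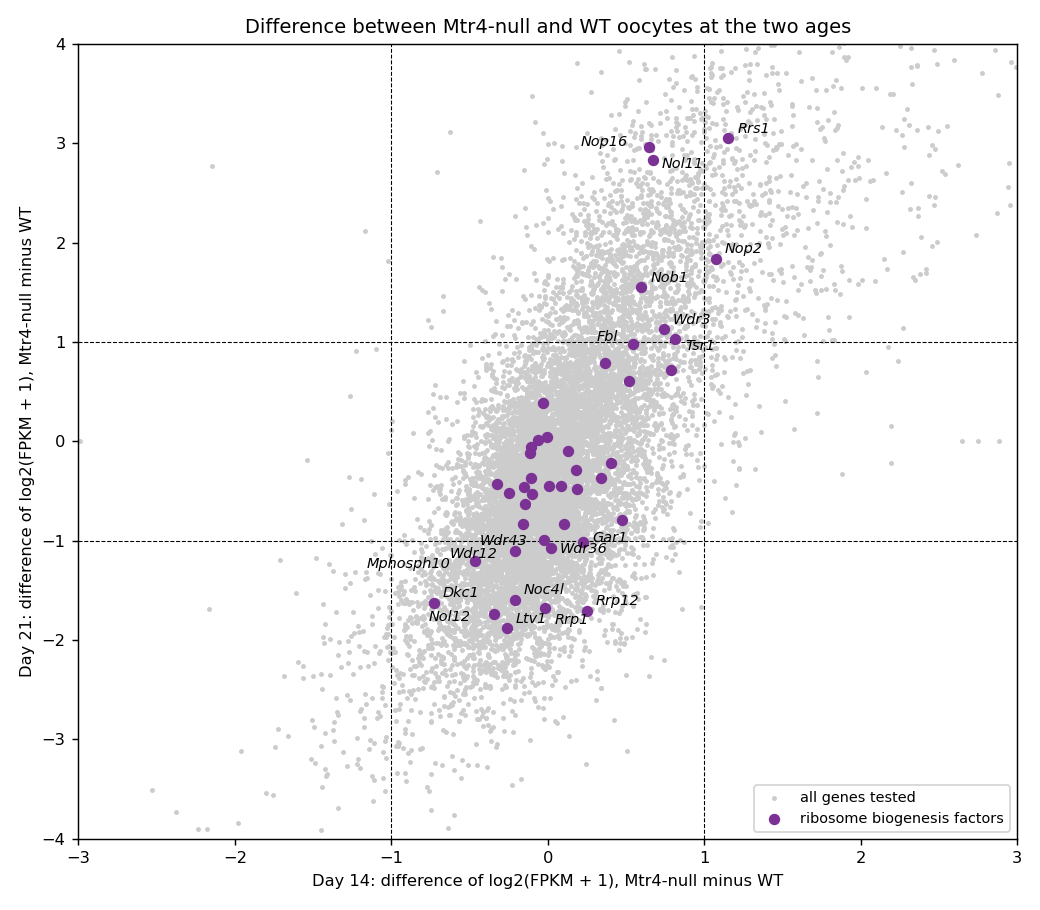
Difference of log2(FPKM + 1), Mtr4-null minus WT, at day 14 (horizontal) and day 21 (vertical) for the 43 genes (purple) and all 11913 genes tested (grey, of which 406 lie beyond the axes), with dashed lines at the 2-fold rule. The 7 genes above the upper line lie at 0.60 or more on the day 14 axis, and the 10 genes below the lower line lie between -0.73 and 0.25 on it.

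The level in WT oocytes at day 14, a column that the day 21 comparison does not use, was set beside the day 21 direction. The 7 higher genes stood at 2.60 to 17.2 FPKM in WT oocytes at day 14, with a median of 6.90 FPKM, and the 10 lower genes at 1.77 to 247 FPKM, with a median of 44.6 FPKM. Of 11 members at 60 FPKM or more, none was higher and 4 were lower at day 21, and of all such genes 3.87% were higher and 33.9% lower. Of 15 members under 10 FPKM, 6 were higher and 3 lower, and among all 5985 such genes, 1863 were higher and 1076 lower. The filter admits genes that are scarce in WT through a high Mtr4-null level. Among genes under 10 FPKM with a WT mean of at least 1, a filter chosen after seeing the data, 21.8% were higher and 21.4% lower, and all 43 members passed that filter too. Spearman's rho between this level and the day 21 difference was -0.32 over the 43 genes, -0.36 over 11753 genes with an annotation and -0.22 over the 11544 genes with a WT mean of at least 1. These points share their libraries, and the coefficients are descriptions.

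Exon numbers were alike among the 7 higher and 10 lower members, while over all genes they were not. Among all annotated genes tested, those higher at day 21 had a median of 5 exons and those lower a median of 11. Spearman's rho between exon number and the day 21 difference was -0.3 over 11753 such genes and -0.07 over the 43 members. The higher members had a median of 15 exons and the lower ones of 13, from 1 in Rrs1 to 27 in Wdr3 among the higher and from 6 in Nol12 to 34 in Rrp12 among the lower. Among the members the single-exon genes were Rrs1 and Imp3, with day 21 differences of 3.05 and 0.61.

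In WT oocytes these genes differed little between the ages. Between day 21 and day 14 1 gene (2.33%) was higher, against 2.02% of all genes, and 2 (4.65%) were lower, against 3.32%. Gar1 stood at 8.49 FPKM at day 21 and 3.04 FPKM at day 14. Nol11 stood at 2.13 FPKM at day 21 and 6.90 FPKM at day 14, and Nob1 at 6.49 FPKM at day 21 and 17.2 FPKM at day 14. The median difference was 0.063. The same WT day 21 values enter the genotype comparison of that age, in which Gar1 was lower and Nol11 and Nob1 were higher.

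In Mtr4-null oocytes more genes differed between the ages, and most of them were lower at day 21. Of the 43, 10 (23.3%) were lower, against 18.6% of all genes, and 2 (4.65%) were higher, against 9.08%. Nop16 stood at 17.3 FPKM at day 21 and 4.98 FPKM at day 14, and Rrs1 at 18.8 FPKM at day 21 and 7.001 FPKM at day 14. On the log2(FPKM + 1) scale the widest lower differences were those of Ltv1 and Noc4l. Ltv1 stood at 19.4 FPKM at day 21 and 66.0 FPKM at day 14, and Noc4l at 64.3 FPKM at day 21 and 213 FPKM at day 14. By plain FPKM the scarce Rrp12 was 4.78-fold lower at day 21, beside 3.41-fold for Ltv1 and 3.31-fold for Noc4l. The lower genes also held Rrp1, Bop1, Wdr36, Rrp12, Nol12, Rrp8, Nol6 and Wdr43. Nop2 stood at 20.2 FPKM at both ages in Mtr4-null oocytes, while in WT oocytes it stood at 4.93 FPKM at day 21 and 9.09 FPKM at day 14. Gar1 likewise stood at 3.71 FPKM at day 21 and 3.73 FPKM at day 14.

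Promoter windows of RefSeq (GRCm38.p6, 250 bases before to 50 after the start) were found for 36 of the 43 genes. Those of Nop2, Nol11 and Nop16 are shown as genes that were higher at day 21 and that of Ltv1 as a gene that was lower. Capitals mark the letters of 5 motifs, each searched on both strands. The E-box, which the MYC family binds, was searched as CACGTG, and the site of the ETS family of transcription factors as CCGGAAG. The motif of the factor YY1 was searched as AAGATGG, and the GC box of the SP family as GGGCGG. The letters of the TATA box were searched as TATAAA anywhere in the window. Where matches overlap, the capitals run together.
Nop2, chr6:125131633-125131932, plus strand: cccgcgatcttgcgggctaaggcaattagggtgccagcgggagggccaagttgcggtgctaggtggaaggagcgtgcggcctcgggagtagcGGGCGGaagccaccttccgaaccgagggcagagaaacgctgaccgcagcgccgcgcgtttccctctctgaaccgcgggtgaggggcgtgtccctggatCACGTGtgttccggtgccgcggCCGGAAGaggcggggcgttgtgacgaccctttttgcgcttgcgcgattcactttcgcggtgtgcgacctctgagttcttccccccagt
Nol11, chr11:107189332-107189631, minus strand: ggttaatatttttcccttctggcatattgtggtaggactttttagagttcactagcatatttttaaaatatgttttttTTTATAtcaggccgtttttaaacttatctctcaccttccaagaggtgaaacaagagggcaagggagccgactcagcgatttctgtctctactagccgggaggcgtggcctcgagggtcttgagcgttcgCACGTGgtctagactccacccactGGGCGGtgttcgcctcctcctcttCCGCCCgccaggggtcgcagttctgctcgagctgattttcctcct
Nop16, chr13:54590025-54590324, minus strand: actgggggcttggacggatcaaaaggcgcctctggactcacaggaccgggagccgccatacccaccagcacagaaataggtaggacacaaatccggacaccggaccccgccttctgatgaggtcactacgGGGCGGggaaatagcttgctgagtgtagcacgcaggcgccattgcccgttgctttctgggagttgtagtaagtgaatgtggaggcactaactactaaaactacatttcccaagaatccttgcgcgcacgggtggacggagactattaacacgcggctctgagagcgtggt
Ltv1, chr10:13193088-13193387, minus strand: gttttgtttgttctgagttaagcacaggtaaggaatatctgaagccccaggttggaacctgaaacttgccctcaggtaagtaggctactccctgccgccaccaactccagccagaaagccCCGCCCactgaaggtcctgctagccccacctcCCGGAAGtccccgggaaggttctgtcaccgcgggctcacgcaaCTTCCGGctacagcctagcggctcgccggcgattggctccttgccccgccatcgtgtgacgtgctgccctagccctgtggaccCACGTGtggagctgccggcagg

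Nop2 and Ltv1, which differed in opposite directions at day 21, both hold the E-box, the ETS letters and the GC box. The E-box letters were in 7 of the 36 (19.4%), namely Nol11, Nop2, Tsr1, Ltv1, Wdr43, Pes1 and Imp4, and in 11.8% of 8394 tested genes with a window. The ETS letters were in 13 (36.1%) against 20.4%, the GC box in 25 (69.4%) against 66.4%, TATAAA in 4 (11.1%) against 9.16%, and the YY1 letters in 2 (5.56%) against 8.70%. Of the 6 higher genes with a window 3 hold the E-box, 3 the ETS letters, 5 the GC box, 1 TATAAA and 1 the YY1 letters. Of the 8 lower genes with a window 1 holds the E-box, 4 the ETS letters, 3 the GC box, 2 TATAAA and none the YY1 letters. These matches are descriptions of the letters in a fixed window.

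Some of the genes start close to a gene on the other strand. In GENCODE, 20 of the 44 genes have another gene's start on the opposite strand within 1000 bases, and 12 of them head to head. Nop16 starts 117 bases from Higd2a, a mitochondrial respiratory factor gene, which stood at 191 FPKM in Mtr4-null and 122 FPKM in WT oocytes at day 21, a difference of 0.64 beside the 2.96 of Nop16. Noc4l starts 34 bases from Ddx51, an RNA helicase of large-subunit assembly, which stood at 6.84 FPKM in Mtr4-null and 3.34 FPKM in WT oocytes, a difference of 0.85 beside the -1.59 of Noc4l. Mphosph10 and Mcee, 339 bases apart, differed by -1.20 and -1.16. The non-coding C130036L24Rik, 174 bases from the start of Ncl, stood at 35.5 FPKM in Mtr4-null and 2.14 FPKM in WT oocytes, while Ncl differed by 0.01.

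Overlaps make some values uncertain, since the library method does not keep the strand. Of the 17 genes that differed 2-fold at day 21, 6 overlap another gene in GENCODE, short RNAs left aside, namely Dkc1, Nol11, Wdr3, Wdr12, Wdr36 and Tsr1, and 11 overlap none. Of all 43 members, 19 overlap another gene. Wdr3 overlaps the more abundant Gdap2, which stood at 22.3 FPKM in Mtr4-null and 58.5 FPKM in WT oocytes at day 21, the opposite direction. Wdr12 overlaps Carf, at 3.91 FPKM in Mtr4-null and 0.646 FPKM in WT oocytes, also opposite. Wdr36 overlaps the scarce 4930455D15Rik, at 1.84 FPKM in Mtr4-null and 0.0253 FPKM in WT oocytes, again opposite. Values for the genes that overlap Nol11 were not analysed here. Dkc1 overlaps Mpp1, with a difference of -0.34, and Tsr1 overlaps Srr, with one of 0.53. A search of GENCODE transcripts found near-identical copies, of 95% identity or more over 50% of the mRNA, for Fbl, Npm1, Imp3 and Pes1.

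Other factors of the pathway, taken from lists of genes outside the 44, also held genes of both directions at day 21, when 20.2% of all genes were higher and 25.7% lower. Of 37 other small-subunit factors tested, 3 (8.11%) were higher and 5 (13.5%) lower at day 21, and 1 was higher at day 14. Bms1, the GTPase of the processome, stood at 10.7 FPKM in Mtr4-null and 82.3 FPKM in WT oocytes at day 21, and Esf1 at 23.7 FPKM in Mtr4-null and 3.79 FPKM in WT oocytes. The methyltransferase gene Wbscr22 stood at 3.49 and 17.99 FPKM in Mtr4-null and WT oocytes, and the helicase gene Ddx49 at 4.37 and 19.3 FPKM in Mtr4-null and WT oocytes. The median of these genes at day 21 was -0.24, against -0.275 for all genes.

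Of 41 other large-subunit factors, 3 (7.32%) were higher and 9 (22.0%) lower at day 21, and 2 were higher at day 14. Nip7, a late assembly factor of the large subunit, stood at 510 FPKM in Mtr4-null and 38.6 FPKM in WT oocytes at day 14 and at 4602 FPKM in Mtr4-null and 46.7 FPKM in WT oocytes at day 21. That day 21 value exceeds the summed 1829 FPKM of the 43 members in the same column. GENCODE places no other gene over it, and Cog8, which starts 188 bases away on the other strand, stood at 15.6 FPKM in Mtr4-null and 23.2 FPKM in WT oocytes. Mak16 stood at 48.2 and 2.77 FPKM in Mtr4-null and WT oocytes at day 21, the nucleostemin relative Gnl3l at 13.1 and 2.21 FPKM in Mtr4-null and WT oocytes, and the GTPase gene Gnl2 at 13.2 and 75.04 FPKM in Mtr4-null and WT oocytes.

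Of 14 genes of RNA polymerase I and its factors, 3 (21.4%) were higher and 4 (28.6%) lower at day 21. Ttf1, the terminator of rRNA gene transcription, stood at 5.85 FPKM in Mtr4-null and 0.959 FPKM in WT oocytes at day 14 and at 65.9 FPKM in Mtr4-null and 1.00 FPKM in WT oocytes at day 21. The subunit gene Polr1c stood at 50.7 FPKM in Mtr4-null and 12.5 FPKM in WT oocytes at day 21. The initiation factor genes Rrn3 and Taf1b stood at 15.5 and 21.8 FPKM in Mtr4-null and at 42.5 and 65.4 FPKM in WT oocytes.

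In the list of rRNA trimming and decay with MTR4, 2 of 14 (14.3%) were higher and 5 (35.7%) lower at day 21, Skiv2l2 among the lower. The nuclease gene Isg20l2 stood at 5.47 FPKM in Mtr4-null and 0.571 FPKM in WT oocytes, the exosome cofactor gene C1d at 20.9 FPKM in Mtr4-null and 5.66 FPKM in WT oocytes, and Rexo1 at 1.79 FPKM in Mtr4-null and 5.06 FPKM in WT oocytes. Rexo1 differed by -1.12, and the remaining lower genes, Exosc10, Papd5 and Papd7, by -1.06, -1.1 and -1.07.

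Of 11 genes of RNase MRP and RNase P, which cut rRNA and tRNA precursors, 3 (27.3%) were higher and 2 (18.2%) lower at day 21. Among the higher were Rmrp and Rpph1, which passed the filter on low values through their Mtr4-null levels alone. The filter itself thus favoured their being higher, and this share cannot be read against that of all genes. The catalytic RNAs differed most, with Rmrp at 212 FPKM and Rpph1 at 35.2 FPKM in the day 21 Mtr4-null oocytes, against a listed 0 and 0.191 FPKM in WT oocytes. The libraries were made from poly(A) RNA, so a value at or near 0 does not show that the RNA was absent. Rmrp overlaps Ccdc107 and Rpph1 overlaps Ccnb1ip1 in GENCODE, so their reads are uncertain. The protein genes Pop7 and Pop1 stood at 213 and 5.70 FPKM in Mtr4-null and at 101 and 13.96 FPKM in WT oocytes. Of 14 snoRNA particle assembly factors, 4 (28.6%) were higher and 4 (28.6%) lower. Znhit3 stood at 271 FPKM in Mtr4-null and 46.1 FPKM in WT oocytes at day 21. Nufip1, a platform protein of the assembly, stood at 35.4 FPKM in Mtr4-null and 9.49 FPKM in WT oocytes. Tgs1, which modifies the cap of snoRNAs, stood at 12.1 FPKM in Mtr4-null and 2.37 FPKM in WT oocytes, and Pih1d1 at 5.79 FPKM in Mtr4-null and 21.9 FPKM in WT oocytes.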

How the data were processed

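Poly(A) RNA of pools of 10 oocytes was copied by Smart-seq2 with ERCC spike-ins, per the labels' protocols, and the submitters' processing notes name TopHat2 2.1.1, Cufflinks 2.2.1 and the build mm9. The authors deposited FPKM values as 1 mean per group, so library depth and precision are unknown here. The planned limma fit needs values per library and was not run. From these means, differences of log2(FPKM + 1) were computed with Python 3.11.15 and pandas 2.3.3 for genes whose FPKM averaged 1 or more. A check of the code on simulated data used changes well beyond 2-fold in genes of at least 5 FPKM. It therefore says nothing of scarcer genes, of genes near 2-fold or of the spread between libraries. Alternatives were a pseudocount of 0.1, other filters and other scalings. The genes and lists were chosen with earlier results of these data known. Named are members at least 2-fold apart between genotypes or between WT ages, the 2 most abundant of each role, Skiv2l2, nested snoRNAs, and up to 4 genes of each other list, by day 21 difference, among those 2-fold apart and reaching 5 FPKM. Other members, complex subunits, neighbours, and Exosc10, Papd5 and Papd7 were added after their values were seen. Annotation came from GENCODE vM21 and RefSeq on GRCm38, and copies were searched with blastn 2.17.0.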

Additional observations from a re-analysis of the deposited data

How the results depend on the processing

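Each alternative was run on the 43 genes and on the whole table. At day 14 the count of higher members, 2, was 1 under median-of-ratios scaling and 0 under quantile normalization, and no setting gave a lower member. At day 21 the counts stayed within 1.5 times of the 7 higher and 10 lower members, at 6 to 8 and 7 to 12, while the share of all genes ran over the settings from 11.9% to 22.8% higher and from 13.7% to 29.8% lower, lowest without a filter. The day 21 median of the members relative to all genes, -0.15, was -0.43 without the filter on low FPKM, -0.03 with a filter on WT means alone, -0.01 under quantile normalization and 0.04 with a minimum mean FPKM of 5, which 39 members reached. The relative median between the ages in Mtr4-null oocytes, 0.12, was -0.18 without the filter on low FPKM. The members are the same 43 genes without that filter, so these 2 values moved through the genes they are set against. Medians were called alike when they moved by less than 0.1. None of the 22 differences followed for single members changed direction. That says little, since only differences of at least 1 were followed and every setting uses the same group means. The filters leave the value of a single gene as it was. Fbl, at 0.98, passed 2-fold under 4 of the settings, and Nol6 and Wdr43 passed it with a pseudocount of 0.1. No paired analysis was possible because the table holds group means, and for the same reason no refit without single libraries was run. Members near 2-fold, such as Fbl, Wdr43, Gar1, Tsr1 and Wdr36, cannot be placed on either side of the rule without replicates.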
